A study of Mus musculus with 8 samples.

Results

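The enzymes of cholesterol synthesis were followed in back skin with and without the transcriptional coactivator Med1. The set was given by gene symbol as Hmgcs1, Mvd, Idi1, Fdps, Fdft1, Sqle, Lss and Cyp51, and every array probe annotated to one of them was taken. This gave 8 probes for 7 of the 8 genes, among 25697 probes on the array, of which 23978 named 16593 genes. Sqle had 2 probes and each of the other genes had 1. Fdft1, which encodes squalene synthase, had no probe named here. RNA came from whole back skin of 4 knockout (KO) mice, in which Med1 was removed by Cre-lox recombination from cells that express keratin 14 (K14), and from 4 control mice labelled WT, which were MED1 fl/fl and so carried the floxed allele as well. All 8 mice were 10 weeks old on a C57BL6 background, and each array was hybridised with RNA of a single mouse. K14 marks basal keratinocytes, so the non-epithelial cells of the skin (fibroblasts, fat, muscle, vessels and immune cells) were not targeted, while whole skin holds RNA of all of them. Which epithelial cells of the epidermis, hair follicle and sebaceous gland had lost Med1 was not examined here.

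Cholesterol is built from acetyl-CoA through mevalonate, the isoprenoid diphosphates, squalene and lanosterol, and most genes of the route are switched on together by the transcription factor SREBP-2 when sterols in the cell run low. SREBP-2 is held back in the endoplasmic reticulum by Scap and the Insig proteins while sterols are plentiful. In skin, cholesterol is one of the main lipids of the barrier between the dead cells of the stratum corneum, and sebaceous glands make lipids, sterols among them, for sebum.

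All 8 cholesterol synthesis probes had higher signal in KO skin than in control skin and passed the test (limma, Benjamini-Hochberg adjusted p under 0.05 over 15120 tested probes). Their changes ran from 1.29-fold for Hmgcs1 to 3.09-fold for the dimmer Sqle probe, with a median log2 change of 0.73, against a median of -0.01 over all tested probes. Each of the 8 probes was detected on all 8 arrays. In 7 of the 8 probes every KO mouse lay above every control mouse, and Idi1 was the exception. These counts stand against a wide background. Of all tested probes, 30.7% were called higher and 32.0% lower in KO skin, and 28.5% had all KO mice above all control mice. Among the probes called higher, the median log2 change was 0.64, so the size of the change in these enzymes was near that of the other probes that rose. Values below are background-corrected, quantile-normalised log2 signals, on which a difference of 1 is a doubling, and errors of a change are standard errors of the fit. Signals of different probes are not comparable with each other.

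The arrays of 1 genotype correlated at 0.991 to 0.993 with each other, and those of different genotypes at 0.908 to 0.916. Between 14593 and 15149 probes were detected per array. Med1 itself fell in KO skin by 0.79 ± 0.14 on the log2 scale for its brightest probe (adjusted p = 0.000649), and its signal was 8.26, 7.80, 8.39 and 8.45 in KO mice, against 9.05, 8.99, 8.92 and 9.10 in the controls. A second Med1 probe fell by 0.69, another did not pass the test, and another was not detected on any array. Where the probes lie relative to the excised region was not examined here. Krt14 and Krt10, keratins of basal and differentiated epidermis, averaged 15.2 (Krt14) and 15.1 (Krt10) in KO skin, against 15.1 and 15.2 in control skin, so epidermis was present in both genotypes. In whole skin, a lower signal from fewer cells of a type and from less RNA per cell cannot be told apart.

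The early steps lead to mevalonate and the isoprenoid building blocks. Hmgcs1, the cytosolic synthase that makes HMG-CoA, gave 14.26, 14.28, 14.25 and 14.27 in KO mice 1 to 4, and 13.94, 13.91, 13.91 and 13.84 in control mice 1 to 4. The KO mice lay within a narrow band above all control mice, and the change was the smallest of the set at 0.37 ± 0.06 (adjusted p = 0.000521). The call held in 17 of 18 alternatives, and the exception was a change of normalisation. It was lost when the log2 values of each array were multiplied to a common median in place of quantile normalisation (change 0.03, adjusted p = 0.887), and kept when a constant was added to each array instead (change 0.29), a setting chosen after the data were seen. Mvd, the mevalonate diphosphate decarboxylase that forms isopentenyl diphosphate, gave 9.01, 9.45, 9.44 and 9.19 in KO mice, and 8.43, 8.72, 8.84 and 8.75 in control mice. KO mouse 1 was the lowest of its genotype, yet above the highest control mouse by 0.17, and the change was 0.59 ± 0.13 (adjusted p = 0.00255).

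Idi1, the isomerase that turns isopentenyl diphosphate into dimethylallyl diphosphate, had the largest spread of the set. It gave 6.54, 6.10, 6.38 and 6.89 in KO mice, and 6.09, 5.73, 6.13 and 5.94 in control mice. The genotypes overlapped, since KO mouse 2 lay below control mouse 3. The change of 0.51 ± 0.16 passed the test (adjusted p = 0.0211), but did not pass without control mouse 2 (change 0.43, adjusted p = 0.0585) or against control mice 1 and 3 only (change 0.37, adjusted p = 0.162). Without background correction it was 0.20. Fdps, the synthase that makes farnesyl diphosphate, gave 13.07, 13.11, 13.01 and 12.94 in KO mice, and 12.27, 12.30, 12.31 and 12.28 in control mice. Control mice varied by an SD of 0.0185 only, all KO mice were at least 0.63 above the highest of them, and the change was 0.74 ± 0.07 (adjusted p = 7.81e-06).

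**Figure D1:**
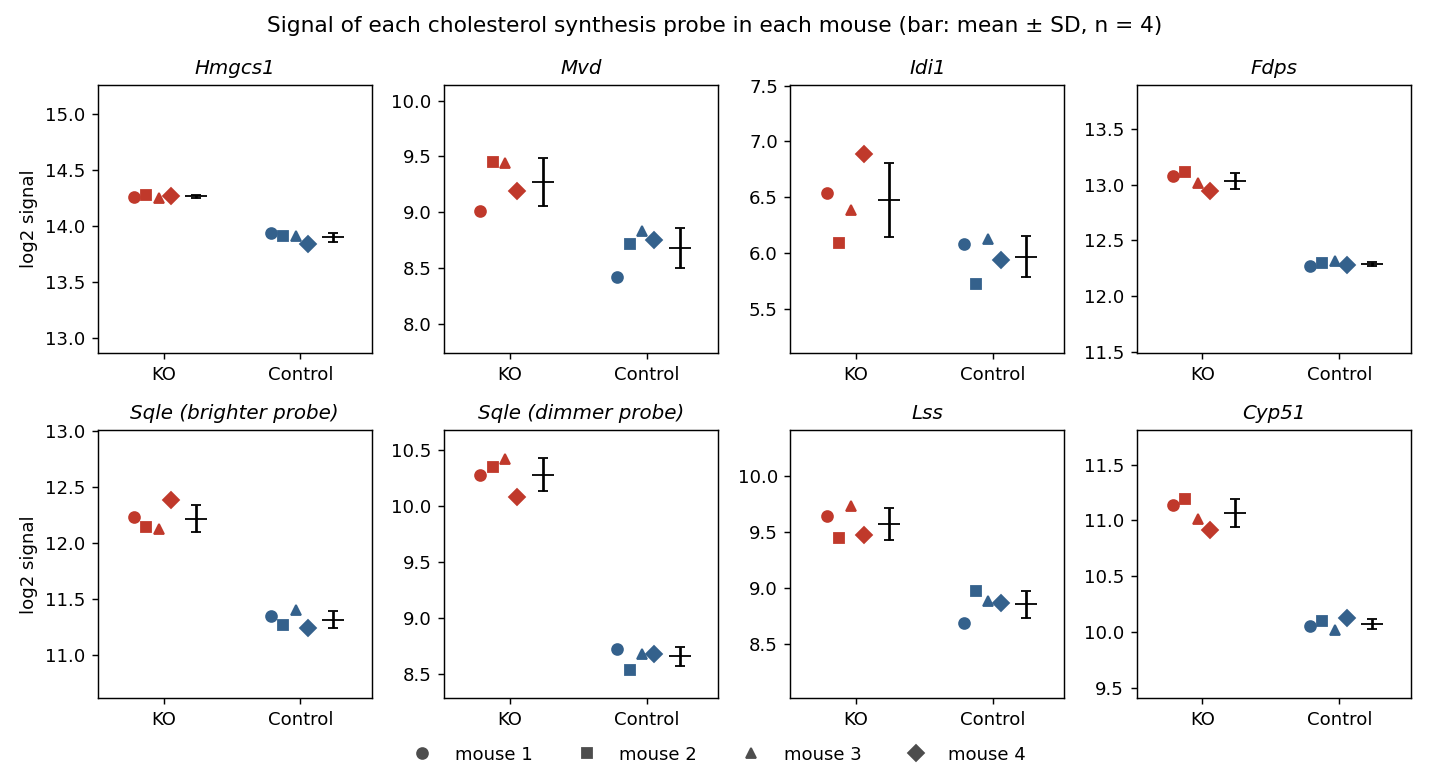
Log2 signal of the 8 cholesterol synthesis probes in each KO mouse (red, left) and control mouse (blue, right), with the mean and SD beside each group of 4. Every panel spans the same range of log2 units around its own midpoint. Symbols mark the mouse number within its genotype and do not pair mice. KO mice lie above all control mice in every panel except Idi1.

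The later steps act on squalene and lanosterol. Sqle encodes squalene epoxidase, the enzyme that adds oxygen to squalene and a controlled step of the route. Its brighter probe gave 12.23, 12.14, 12.12 and 12.38 in KO mice, and 11.35, 11.27, 11.41 and 11.24 in control mice. Its dimmer probe gave 10.28, 10.35, 10.42 and 10.08 in KO mice, and 8.72, 8.54, 8.68 and 8.68 in control mice. In both probes the genotypes were far apart compared with the spread within them. The brighter probe rose by 0.91 ± 0.08 (adjusted p = 8.45e-06) and the dimmer by 1.63 ± 0.09 (adjusted p = 3.14e-07). The change was thus 0.72 larger for the dimmer probe, and the difference between the probes separated all KO mice (-2.30 to -1.70) from all control mice (-2.73 to -2.56), with an exact two-sided permutation p of 0.0286, the smallest that 70 assignments of the mice allow. Sqle therefore rose by 1.87-fold or 3.09-fold depending on the probe. Which transcripts each probe reads was not examined here.

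Lss, lanosterol synthase, which closes the sterol ring system, gave 9.65, 9.44, 9.74 and 9.47 in KO mice, and 8.69, 8.97, 8.88 and 8.87 in control mice. All KO mice were above all control mice by at least 0.47, and the change was 0.72 ± 0.09 (adjusted p = 0.000108). Cyp51, the lanosterol demethylase that starts the trimming of lanosterol, gave 11.14, 11.19, 11.01 and 10.91 in KO mice, and 10.06, 10.10, 10.02 and 10.13 in control mice. Control mice lay close together, with an SD of 0.0458, and the change of 0.99 ± 0.08 (adjusted p = 4.19e-06) was 1.98-fold. Of the 8 probes, 1 exceeded 2-fold. Among all tested probes, 7.65% were called higher with at least 2-fold.

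**Figure D2:**
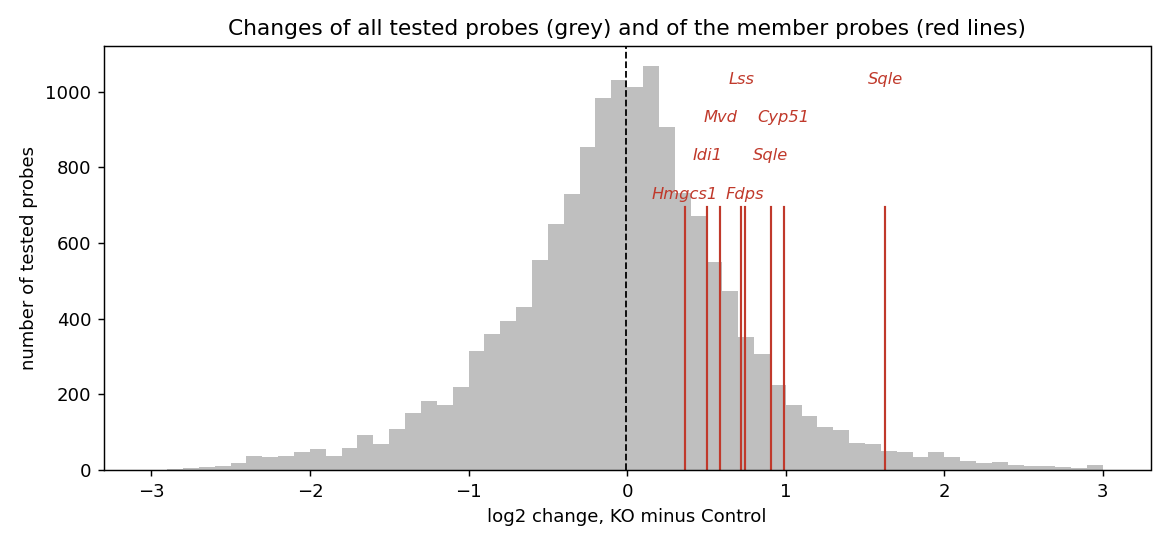
Number of tested probes (vertical axis) by log2 change, KO minus control (horizontal axis, bins of equal width), in grey, with the 8 cholesterol synthesis probes as red lines and the median of all probes as a dashed line. The axis ends at 3 in each direction and leaves out 149 of 15120 probes. All red lines lie right of the median, from 0.37 for Hmgcs1 to 1.63 for the dimmer Sqle probe, within the right shoulder of the distribution.

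Placed in the distribution of all tested probes, 73.7% of probes had a smaller log2 change than Hmgcs1, 79.9% than Idi1, 83.0% than Mvd, 87.0% than Lss, 87.6% than Fdps, 91.0% than the brighter Sqle probe, 92.2% than Cyp51 and 96.9% than the dimmer Sqle probe. The enzymes thus lay in the upper part of the distribution and did not form its extreme.

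The mice of a genotype did not order the enzymes alike. KO mouse 2 was highest of the KO mice in 4 of the 8 probes and lowest in 2. Control mouse 3 was highest of the control mice in 4 and lowest in 1. With each gene centred on its mean over the 8 mice and its brightest probe taken, the mean of the 7 genes was 0.34, 0.32, 0.35 and 0.36 in KO mice, and -0.38, -0.36, -0.29 and -0.35 in control mice. This mean profile was therefore flat within each genotype. The 5 genes outside the listed pathways and marker sets whose centred values were most like it over the 8 mice, of 10081 genes compared, were Fzd10, Btg1, Cx3cl1, Vps29 and Utp4. Their root mean square differences from the profile were 0.0375, 0.0380, 0.0396, 0.0462 and 0.0470 log2 units, and their changes 0.68, 0.70, 0.65, 0.68 and 0.69. Fzd10 encodes a Wnt receptor and Cx3cl1 a chemokine. The profile is close to a plain step between genotypes of 0.69 log2 units with little spread among mice.

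The upstream sequence of the genes was read for 3 motifs of promoters of this route: the sterol regulatory element bound by SREBP (TCACNCCAC), the CCAAT box bound by NF-Y (CCAAT) and the GC box bound by Sp1 (GGGCGG), each on both strands. RefSeq windows of 250 bases before the annotated start (build GRCm38.p6) were present for 5 of the 7 genes, Hmgcs1, Mvd, Idi1, Lss and Cyp51. Fdps and Sqle were not in the table. All 5 windows held both a CCAAT box and a GC box, which 3618 of all 32851 windows of this length held together (33.8% held a CCAAT box and 32.7% a GC box). The sterol regulatory element was found in Hmgcs1, 129 to 137 bases before the start, and in none of the other 4 windows, against 1.05% of all windows. No match overlapped another in these 5 windows. Among the other synthesis enzymes with a window, 10 of 11 genes had a CCAAT box, 10 of 11 a GC box and none the sterol regulatory element. Msmo1, Sc5d and Tm7sf2, which did not pass the test for genotype, had both boxes. The pair was thus not particular to enzymes that rose. The 150 bases nearest the start are shown for the 5 members, 5′ to 3′ on the strand of the gene, to allow comparison among them. Capitals mark the matches, with ATTGG and CCGCCC the reverse strand of the CCAAT box and of the GC box.
Hmgcs1 chr13:119690201-119690350 (+ strand): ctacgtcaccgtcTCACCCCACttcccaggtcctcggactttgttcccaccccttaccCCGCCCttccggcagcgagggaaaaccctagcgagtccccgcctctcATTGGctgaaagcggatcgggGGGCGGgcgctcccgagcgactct
Mvd chr8:122443423-122443572 (- strand): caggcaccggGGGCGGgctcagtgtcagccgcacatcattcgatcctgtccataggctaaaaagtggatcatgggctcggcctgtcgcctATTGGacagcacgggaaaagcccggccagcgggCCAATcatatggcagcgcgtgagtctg
Idi1 chr13:8885456-8885605 (+ strand): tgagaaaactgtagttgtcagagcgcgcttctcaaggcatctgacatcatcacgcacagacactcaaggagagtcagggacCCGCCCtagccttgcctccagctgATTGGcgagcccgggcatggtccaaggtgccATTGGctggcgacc
Lss chr10:76531455-76531604 (+ strand): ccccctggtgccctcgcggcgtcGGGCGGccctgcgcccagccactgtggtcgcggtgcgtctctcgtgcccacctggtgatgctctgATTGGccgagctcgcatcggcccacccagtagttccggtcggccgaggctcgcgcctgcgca
Cyp51 chr5:4104698-4104847 (- strand): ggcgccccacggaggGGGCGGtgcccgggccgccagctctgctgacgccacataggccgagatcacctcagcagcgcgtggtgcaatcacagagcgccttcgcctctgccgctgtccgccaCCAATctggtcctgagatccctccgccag
In this stretch Hmgcs1 has its sterol regulatory element upstream of the GC and CCAAT boxes, and in each of the other 4 genes a GC box lies upstream of a CCAAT box. A match shows the letters only, and an absent match says only that these letters are not in the window.

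Among the other enzymes of the route, 9 of 13 listed genes had a named probe, and all 9 were tested. Represented by their brightest probes, 5 rose, none fell and 4 did not pass the test, with a median log2 change of 0.31. Over all 10350 genes tested in this way, 29.4% rose and 34.4% fell, and the median was -0.04. Nsdhl, a sterol dehydrogenase that helps remove methyl groups from the ring, rose most, by 1.46 ± 0.13 (adjusted p = 8.71e-06). It gave 8.94, 9.02, 8.89 and 8.65 in KO mice, and 7.12, 7.32, 7.53 and 7.69 in control mice, and its other probes rose by 1.47, 1.25 and 0.37. Lbr, the lamin B receptor, which is also a sterol reductase, rose by 0.76 ± 0.12, and Ebp, the sterol isomerase, by 0.55 ± 0.09. Dhcr7, the reductase of the final step, rose by 0.45 ± 0.12, with KO mouse 2 (8.94) just below control mouse 4 (8.95), and Hsd17b7, which reduces a keto group on the ring, by 0.21 ± 0.07. Hsd17b7 lost its call when log2 values were multiplied to a common median (0.04, adjusted p = 0.758), and when either control mouse 4 or KO mouse 1 was left out (adjusted p = 0.0520 and 0.0573).

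The 4 genes that did not pass had positive values with overlapping genotypes: Pmvk, phosphomevalonate kinase (0.15 ± 0.11), Tm7sf2, a sterol reductase (0.21 ± 0.18), Msmo1, the methylsterol monooxygenase (0.17 ± 0.09), and Sc5d, the sterol desaturase (0.31 ± 0.18). Counted against control mice 2 and 4 only, 3 of the 9 rose, as Dhcr7 and Hsd17b7 did not pass there. Acat2 and Mvk had no probe named here and were not analysed. Taken over the whole route, 12 of the 16 tested enzymes rose and none fell, against 29.4% and 34.4% of all genes. Of these 12, 7 belong to the set given at the start, all of whose tested genes rose. That set was chosen with earlier results of these data known.

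**Figure D3:**
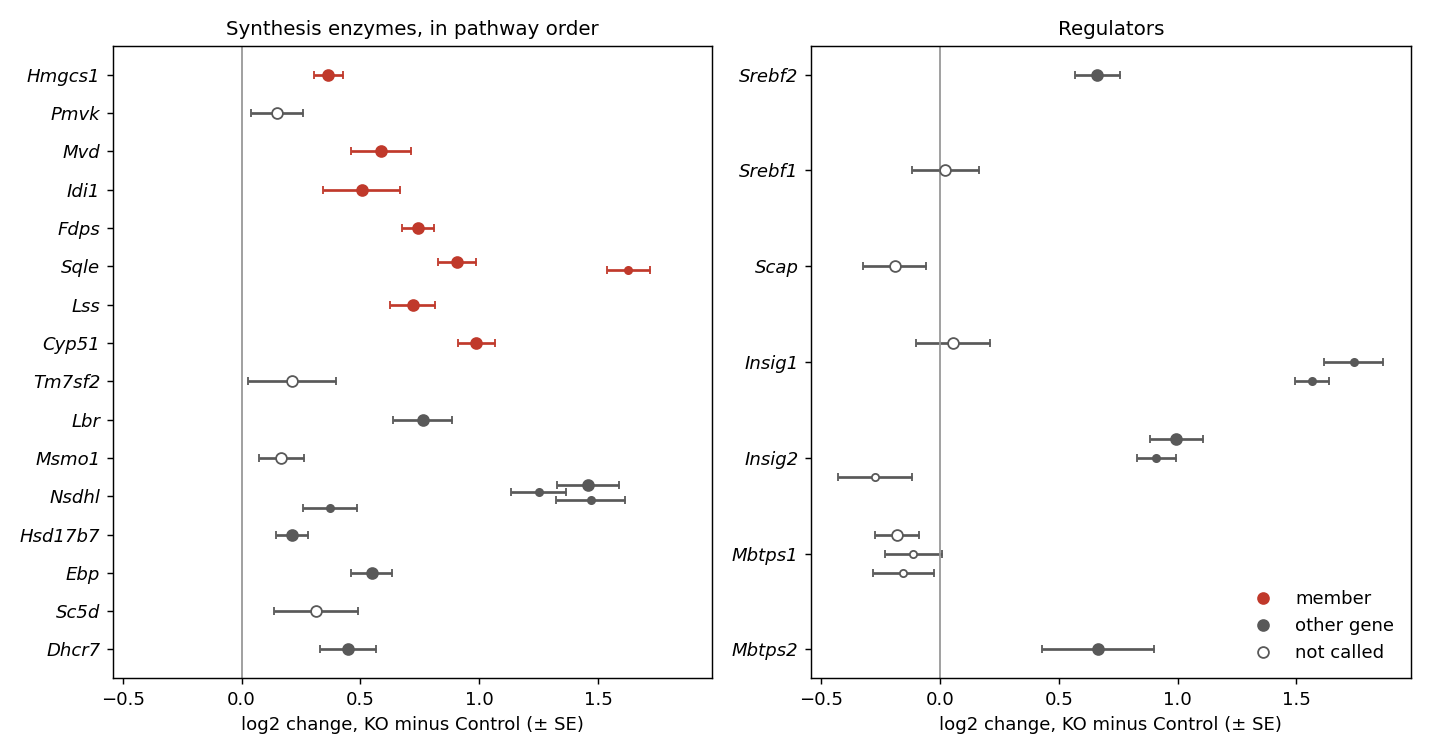
Log2 change, KO minus control (horizontal axis, ± SE), of the tested synthesis enzymes in pathway order (left panel; the 7 listed enzymes in red) and of regulators of SREBP (right panel). Open symbols did not pass the test, and smaller symbols are further probes of a gene. Of the enzymes, Nsdhl and the dimmer Sqle probe changed most, and the Insig1 probes disagree with each other.

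Of the 10 regulators tested of 13 listed, 3 rose, 1 fell and 6 did not pass by their brightest probes. Over all genes, 29.4% rose and 34.4% fell, so the share that rose was near that over all genes. Insig1 counts among the 6 by its brightest probe, although other probes of it rose. Srebf2, which encodes SREBP-2, rose by 0.66 ± 0.09 (adjusted p = 0.000198), from signals of 10.25, 10.51, 10.59 and 10.32 in KO mice, against 9.68, 9.66, 9.82 and 9.86 in the controls, without overlap. Srebf1, which encodes SREBP-1, had a change of 0.02 ± 0.14 (adjusted p = 0.895) and overlapping genotypes. Insig1 and Insig2 encode the proteins that hold SREBP back, and Insig1 is itself a known target of SREBP. Insig2 rose by 0.99 ± 0.11 for its brightest probe and by 0.91 for another, while its dimmest probe (-0.27) did not pass. The Insig1 probes disagreed. The brightest gave 0.06 ± 0.15 (adjusted p = 0.773), from signals of 8.53, 8.79, 8.71 and 9.16 in KO mice, against 8.73, 8.68, 9.06 and 8.50 in the controls, whereas a second rose by 1.74 and another by 1.57, each with all KO mice above all control mice. The last was not detected on any array.

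Nr1h3, the LXRα nuclear receptor that senses oxysterols, fell by 1.14 ± 0.10 (adjusted p = 1.02e-05), and its signal was 8.27, 8.30, 8.30 and 7.93 in KO mice, against 9.18, 9.42, 9.32 and 9.42 in the controls. Mbtps2, a protease that frees SREBP from the membrane, was near background (detected in 4 KO and 2 control mice). Its change of 0.67 ± 0.24 passed the test with overlapping genotypes (adjusted p = 0.0322) but did not pass without control mouse 1 (adjusted p = 0.0845), control mouse 3 (0.0822), KO mouse 2 (0.0821) or KO mouse 3 (0.0710). Scap (-0.19), Mbtps1 (-0.18), Mylip (-0.0023) and Rnf139 (-0.24) were among those that did not pass.

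Of 14 listed genes that take up, store and export sterols, 9 were tested, and 3 rose, 3 fell and 3 did not pass, shares near those over all genes (29.4% higher and 34.4% lower). Sult2b1, the sulfotransferase that makes cholesterol sulfate in the upper epidermis, rose by 1.33 ± 0.09 (adjusted p = 9.24e-07), and its further probes by 1.52 and 1.48. It gave 11.18, 11.22, 11.30 and 11.05 in KO mice, and 9.74, 9.77, 9.97 and 9.95 in control mice. Stard4, a cholesterol transfer protein, rose by 0.93 ± 0.14, and Apoe, a carrier of cholesterol in lipoproteins, by 0.44 ± 0.06. Cyp27a1, the sterol 27-hydroxylase, fell by 0.99 ± 0.08, and its further probes by 1.03 and 1.13. Abcg1, an exporter of cholesterol, fell by 0.74 ± 0.20. Lcat, which esterifies cholesterol in plasma, fell by 0.44 ± 0.14, with overlapping genotypes, and its call was lost without control mouse 1 (-0.39) or 4 (-0.38), or KO mouse 1 (-0.42), 3 (-0.41) or 4 (-0.37). The call of Apoe was lost when log2 values were multiplied to a common median (0.16, adjusted p = 0.301). Scarb1 (-0.21), Npc2 (-0.06) and Ch25h (-0.12) did not pass, and Abca1 and Lipa were not detected on any array.

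Beyond sterols, farnesyl diphosphate is also used for other products. Of 5 tested genes of these branches, Fntb, a subunit of farnesyltransferase (0.65 ± 0.07), and Nus1, a subunit of the enzyme that makes dolichol precursors (0.53 ± 0.09), rose, Coq2 of ubiquinone synthesis (-0.72 ± 0.09) and the brightest probe of Dhdds, the partner of Nus1 (-0.49 ± 0.13), fell, and the brightest Fnta probe (-0.10) did not pass. The dimmest Fnta probe passed as lower (-0.33, adjusted p = 0.0475), and another (-0.08, adjusted p = 0.472) did not pass. A further Dhdds probe (-0.06, adjusted p = 0.753) did not pass, and the call of the brightest was lost against control mice 1 and 3 only (-0.43, adjusted p = 0.0763). Of 10 tested fatty acid genes that SREBP is also known to drive, 5 rose and none fell by their brightest probes. Over all genes tested in this way, 29.4% rose and 34.4% fell. Scd2, a desaturase, rose by 1.14 ± 0.09 and Fads2, another desaturase, by 1.10 ± 0.19, whereas Acaca, Acly and Elovl6 rose by 0.40, 0.35 and 0.19. When log2 values were multiplied to a common median, the calls of Acaca (0.25, adjusted p = 0.0801), Acly (0.08, adjusted p = 0.614) and Elovl6 (-0.03, adjusted p = 0.852) were lost, and Scd1 (-0.32) and Fads1 (-0.28) passed as lower. Elovl6 also lost its call without any 1 of the control mice (adjusted p 0.0722 to 0.0857), without KO mouse 1 (0.108) and without KO mouse 3 (0.105). Scd1, the main desaturase of sebaceous glands, had a change of 0.02 ± 0.08, and Acss2 (-0.06), Elovl5 (0.08), Fads1 (-0.10) and the brightest Me1 probe (-0.19) did not pass either. The other tested Me1 probe rose (adjusted p = 7.69e-06), and it was detected in 4 KO mice and in none of the control mice. Fasn was not detected on any array.

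Markers of the cell types in skin moved with genotype beside these enzymes. Sums of linear signal are given for each list. They rest mostly on its brightest probes and do not weigh the markers alike. Over all genes, 29.4% rose and 34.4% fell. The summed linear signal of 9 sebaceous gland markers was 41562 to 45088 in KO mice and 32170 to 34109 in control mice, and 7 of them rose and none fell. The 8 proliferation markers all rose, with sums of 8300 to 8429 in KO mice and 2052 to 2260 in control mice. The 12 markers of hair shaft and inner root sheath all rose, with sums of 181000 to 189610 in KO mice and 425 to 2053 in control mice, where Krt35, Krt72 and Foxn1 were not detected in any mouse. Of the 9 basal epidermis markers 6 fell and 1 rose (75786 to 80819 in KO mice, 99851 to 106010 in control mice), and of 11 markers of differentiated epidermis 4 rose and 4 fell (83482 to 85101 in KO mice, 94429 to 96402 in control mice). Of the 7 adipocyte markers 4 fell and 1 rose (8607 to 9330 in KO mice, 12097 to 12917 in control mice). All 10 muscle markers fell (91222 to 93778 in KO mice, 221760 to 227870 in control mice), as did all 5 macrophage markers (14342 to 15130 in KO mice, 21015 to 21625 in control mice). The part of these shifts in the change of the synthesis enzymes was not tested, and genotype and cell makeup cannot be told apart in these samples.

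Hair keratin signal also differed among the control mice. Krt71, a keratin of the inner root sheath, was 15.3 in each of the KO mice. Among the controls it was 8.50 in mice 1 and 3, and 5.03 and 5.48 in mice 2 and 4. It was detected in 3 of the 4 controls, and the 5.03 of control mouse 2 lay below the lowest detected signal of that array (5.09). The mean profile of the synthesis enzymes was -0.38 and -0.29 in controls 1 and 3, and -0.36 and -0.35 in controls 2 and 4. Single probes differed in this. Idi1 was 6.09 and 6.13 in controls 1 and 3, against 5.73 and 5.94 in controls 2 and 4. Both Sqle probes also lay higher in controls 1 and 3, Cyp51 lay lower there, and the other probes showed no such order. With 2 mice on each side, and Krt71 in all controls far below the KO mice, the part of the hair follicle signal in the enzyme changes was not tested by this. All 8 probes were called against control mice 2 and 4 only, and 7 of the 8 against control mice 1 and 3 only, where Idi1 did not pass. Calls were common in both fits. Against control mice 2 and 4, 8208 of 15046 tested probes were called, 49.5% of them higher. Against control mice 1 and 3, 8193 of 15033 were called, 50.4% of them higher.

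**Figure D4:**
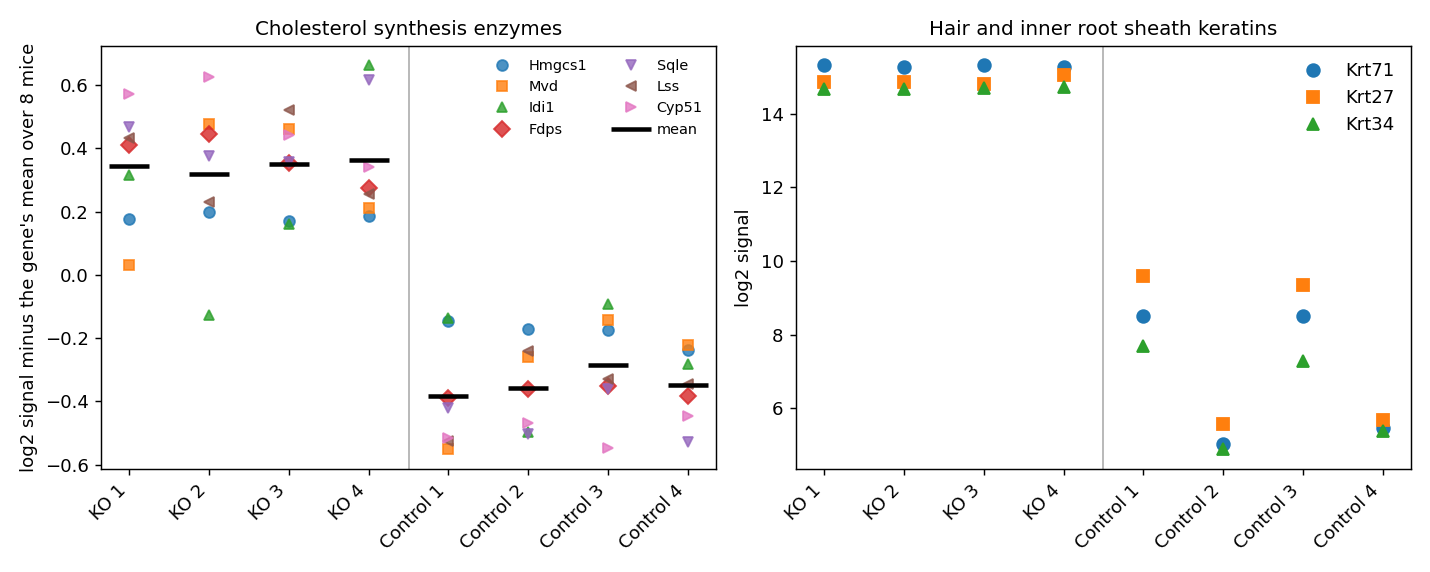
Left, log2 signal of the 7 synthesis genes (brightest probe) minus each gene's mean over the 8 mice, with the mean of the genes as a black bar. Right, log2 signal of the keratins Krt71, Krt27 and Krt34 in the same mice, KO mice left of control mice. Control mice 1 and 3 have high keratin signals among controls, while the black bars of the 4 control mice lie between -0.38 and -0.29.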

How the data were processed

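Whole-skin RNA of 4 KO and 4 control mice was hybridised to Illumina bead arrays. The deposited table holds non-normalised probe intensity per mouse and a detection p-value per probe, as exported by the authors. Their processing notes name GenomeStudio 2011.1. A second deposited table holds the authors' normalised intensity values, made by a normalisation that the sources used here do not give. It ranked probes as the raw signals did (Spearman 1 in each array) and served as an alternative. All arrays of that table have a median of 39.1.

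Signals were background-corrected from the detection p-values, quantile-normalised and log2-transformed with limma 3.58.1 in R 4.3.3 (neqc, offset 16). Probes with a detection p under 0.05 on at least 4 of 8 arrays were tested with lmFit and eBayes for genotype, and p-values were adjusted by Benjamini-Hochberg over all tested probes at 0.05. Gene names came from the platform annotation: 23978 probes had 1 symbol, 0 several and 1719 none, and 23962 matched the RefSeq gene table. The brightest tested probe stood for a gene in lists, and each probe of the synthesis enzymes was used. Exact permutation over mice served for the difference between the Sqle probes. The fit was tested on simulated data. The number of arrays limits precision.

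The members and lists were chosen with earlier results of these data known. Named genes were all members, Med1 and the main sterol regulators, and from every other list up to 3 called genes per direction by size of change; others are named to account for the lists. Alternatives were no background correction, scaling, the authors' values, other detection filters, a variance trend, the replicate number as a block, each mouse left out, and KO mice against control mice 1 and 3 or 2 and 4 only, which earlier results showed to differ in hair keratin signal. Shifting arrays to a common median was added after the data were seen. Promoter windows came from RefSeq (GRCm38.p6). Some genes of the lists are not reported here.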

Additional observations from a re-analysis of the deposited data

Results flagged for a closer look

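In Nr1h3, KO mouse 4 stood apart from the other KO mice, at 7.93 against 8.27 to 8.30 log2 units, a gap of 0.91 of the whole range of the KO mice. It was the only such value among 62 sets of 4 mice examined, and chance alone gives about 5% of sets. The value lay further from the control mice than those of the other KO mice did.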

How the results depend on the processing

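Over 18 alternatives, 6 of the 8 synthesis probes kept their direction and call in each: Mvd (0.47 to 0.68 log2 units), Fdps (0.50 to 0.78), the brighter Sqle probe (0.73 to 0.96), the dimmer Sqle probe (1.38 to 1.70), Lss (0.60 to 0.79) and Cyp51 (0.89 to 1.04). Hmgcs1 ranged from 0.03 to 0.41 and Idi1 from 0.20 to 0.65, with the call lost in 1 alternative for Hmgcs1 and 2 for Idi1. The calls over all probes ran from 8193 to 9784, against 9473. Scaling by multiplication moved the median change to -0.07 and the share of calls that were higher to 43.4%, against 48.9%, and among the brightest probes of the listed pathway genes it ended the calls of Hmgcs1, Hsd17b7, Apoe, Acly, Acaca and Elovl6 and added Fnta, Scd1 and Fads1 as lower. Elovl6 kept its call in few alternatives, and lost it also with arrays shifted to a common median (adjusted p = 0.0920), with no detection filter (0.0669) and with the replicate block (0.0880). Other synthesis enzymes that rose numbered 3 against control mice 2 and 4 only, in place of 5, a fit with fewer samples. The brightest Insig1 probe turned negative against control mice 1 and 3 only (-0.10) and ran from -0.065 to 0.16 when mice were left out in turn. Srebf1 turned negative against control mice 2 and 4 only (-0.040) and ran from -0.052 to 0.14 when mice were left out. The cause was not tested. Lcat lost its call with the replicate block (adjusted p = 0.0673), without 5 of the 8 mice in turn and against control mice 2 and 4 only, Mbtps2 without the 4 mice named above and against control mice 2 and 4 only, and Dhdds against control mice 1 and 3 only. For the 8 synthesis probes and the genes named by rule, 532 values kept direction and call, 18 lost the call and 7 changed sign. These counts leave out genes named only to account for the lists. Hsd17b7, Dhcr7, Acly and Elovl6 are among those and also lost calls. Deviations of same-numbered mice from their genotype means correlated at -0.11, 0.01, 0.06 and -0.09. Of the KO mice, only KO mouse 3 correlated best with its own number. No KO mouse correlated above 0.09 with any control mouse, so these values cannot show whether the mice were paired. With the replicate block 9192 probes were called, all 8 synthesis probes among them, and 4 of the other synthesis enzymes rose. Dim probes such as Idi1 and Mbtps2 lie near background, which limits their precision.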
